A study of Mus musculus with 2 samples.

Results

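The 8 genes of neuropeptide and cannabinoid signalling described here were followed in the dermal papilla of mouse skin: Vip, Gal, Penk, Cck and Npvf, which encode secreted peptides, and Cnr1, Tacr1 and Oprk1, which encode receptors. They are 8 of the 32285 genes in the files and were chosen by earlier results of these same data, as genes that marked papilla states or fell after testosterone propionate (TP), so their levels across states and between conditions are given as a description, with no test. The data are single-cell RNA-seq of dorsal skin from male C3H/HeN mice in a model of androgenetic alopecia, a patterned, androgen-dependent hair loss. The control group (Con) received vehicle, and the TP group received TP under the skin at 0.5 mg/day. Injections began at 7 weeks of age on shaved skin, and tissue was taken at 9 weeks. Each group was 1 library made from the pooled skin of 15 mice, so no spread between animals can be had and no p-value was computed. A further group of the study, given TP with an antibody against CXCL12, was not analysed here.

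The dermal papilla is a cluster of specialised fibroblasts at the base of the hair follicle that instructs the epithelium above it through secreted BMP, FGF, WNT and R-spondin signals. Neuropeptides are made as precursor proteins, cut by convertases and released, and act on G protein-coupled receptors of nearby cells. They are best known from neurons and endocrine cells, and in skin from sensory nerve endings around follicles. CB1, the product of Cnr1, is the cannabinoid receptor that is abundant in brain, and its ligands are lipids made on demand by enzymes rather than peptides.

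The members lie on 6 chromosomes, in the coordinates of GRCm38.p6, the build of the files. Vip (ENSMUSG00000019772) spans chr10:5639193-5647617, Gal (ENSMUSG00000024907) chr19:3409915-3414544 and Penk (ENSMUSG00000045573) chr4:4133536-4138815. Cck (ENSMUSG00000032532) spans chr9:121489824-121495694 and Npvf (ENSMUSG00000029831) chr6:50650672-50654445. Of the receptors, Cnr1 (ENSMUSG00000044288) spans chr4:33923171-33948831, Tacr1 (ENSMUSG00000030043) chr6:82402003-82560104 and Oprk1 (ENSMUSG00000025905) chr1:5588450-5606134. The assay counts molecules at the 3′ end of a transcript, so it does not show which start site was used. RefSeq promoters, 250 bases before to 50 after an annotated start, were found for 6 members, 3 of them for Cnr1; Penk and Oprk1 had none.

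The promoters of Vip and Gal are shown since these peptides peaked in the same papilla state, and those of Npvf and the first Cnr1 start since their genes were lowest in TP relative to the control. They read 5′ to 3′ on the strand of the gene, with the letters TGACG, the core of a cAMP response element half-site, in capitals where they occur on the strand shown.

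Vip, chr10:5638968-5639267, plus strand: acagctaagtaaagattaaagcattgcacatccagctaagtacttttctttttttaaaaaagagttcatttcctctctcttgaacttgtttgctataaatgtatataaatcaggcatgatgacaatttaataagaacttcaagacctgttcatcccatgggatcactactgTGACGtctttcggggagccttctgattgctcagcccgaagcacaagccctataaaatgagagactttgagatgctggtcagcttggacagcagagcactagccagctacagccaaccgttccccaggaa

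Gal, chr19:3414495-3414794, minus strand: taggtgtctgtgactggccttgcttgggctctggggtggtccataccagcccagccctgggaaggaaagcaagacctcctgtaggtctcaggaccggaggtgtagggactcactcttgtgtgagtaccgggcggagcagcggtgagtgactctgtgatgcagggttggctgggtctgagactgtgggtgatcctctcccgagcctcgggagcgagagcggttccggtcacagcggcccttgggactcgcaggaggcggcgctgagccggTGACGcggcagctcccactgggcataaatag

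Npvf, chr6:50654396-50654695, minus strand: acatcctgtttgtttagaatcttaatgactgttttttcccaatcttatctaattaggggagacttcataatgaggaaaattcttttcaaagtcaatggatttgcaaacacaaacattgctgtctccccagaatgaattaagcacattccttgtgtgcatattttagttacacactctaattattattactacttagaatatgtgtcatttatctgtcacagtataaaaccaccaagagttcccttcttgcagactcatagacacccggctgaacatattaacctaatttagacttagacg

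Cnr1, chr4:33924014-33924313, plus strand: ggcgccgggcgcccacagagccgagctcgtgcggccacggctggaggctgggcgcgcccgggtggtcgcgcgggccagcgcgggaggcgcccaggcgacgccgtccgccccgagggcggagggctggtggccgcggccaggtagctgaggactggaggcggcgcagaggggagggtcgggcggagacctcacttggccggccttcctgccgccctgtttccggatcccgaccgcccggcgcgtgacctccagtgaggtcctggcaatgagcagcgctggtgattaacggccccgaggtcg

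A set of 4 motifs was searched on both strands of all 8 promoters of the members: TGACGTCA (cAMP response element), TGACTCA (AP-1), AGAACA (half-site of steroid receptors) and CTTTGAT (TCF/LEF). None of them occurred in any of these windows. Of all 32851 promoters in the table, 1.79% held the first, 5.20% the second, 19.0% the steroid half-site and 3.73% the TCF/LEF letters. The shorter TGACG, which is part of TGACGTCA and was added after that search, occurred in 20.8% of all promoters. It stood 79 bases before the start of Vip on the gene's own strand and at base 20 of the transcript of Gal, and on the opposite strand at 47 bases before the start of Cck and 226 before that of Tacr1. Neither Npvf nor any of the Cnr1 starts held it.

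The control library held 45709 barcodes and 130999979 unique molecular identifiers (UMIs, 1 per captured transcript), and the TP library 25931 barcodes and 166929585 UMIs. After filters and removal of called doublets, 39076 control cells with a median of 2045 UMIs and 18542 TP cells with a median of 4790 UMIs were kept. The share of barcodes over the mitochondrial limit was 7.58% in the control and 22.6% in TP, and its part in the ratios below was not tested. The libraries shared 303 barcodes, 0.663% of the control's and 1.17% of those of TP. Levels are given as counts per 1000000 UMIs of the same cells (CPM), and intervals are exact 95% intervals that cover counting error only. They are too narrow for genes whose UMIs sit in few cells, and they hold nothing of the spread between mice.

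Papilla-like cells were 3 of 29 clusters, named by their markers (Corin, Fgf7, Alx4, Wif1, Prom1, Alpl and Rspo3), with the members and the other genes of the pathway list kept out of the clustering. They numbered 4314 in the control (11% of kept cells) and 1785 in TP (9.63%), a ratio of shares of 0.872 (0.825 to 0.922) that ranged from 0.637 to 1.03 with other ways of choosing the cells. All 7 papilla markers were detected in both libraries, with a summed level of 10773 CPM in the control and 8660 CPM in TP, in which Corin (2697 CPM and 1371 CPM), Fgf7, Rspo3 and Alx4 were lower in TP per UMI and Wif1, Alpl and Prom1 higher. Markers of other cells also differed between the libraries within this class. The summed level of the 5 inner root sheath markers was 2008 CPM in the control and 378 CPM in TP, and that of the 5 melanocyte markers 162 CPM and 24.6 CPM. The 5 dermal fibroblast markers were at 1291 CPM and 2245 CPM, the 5 dermal sheath markers at 328 CPM and 538 CPM, and the 4 Schwann cell markers at 37.0 CPM and 14.6 CPM. Their part in the TP over control ratios of the 8 genes was not tested. In these cells, Krt8, Krt18, Krt20, Atoh1 and Isl1, which define Merkel cells, had 7 UMIs together in each library, although Piezo2 had 1862 UMIs in the control and 867 in TP. Of the neuronal markers, Snap25 had 1 UMI in the control and 0 in TP, and Rbfox3 had 5 and 0. Elavl3 had 5 in each library and Nefm 2 and 1, while Syt1, from the same list, had 175 UMIs in the control (14.1 CPM) and 58 in TP (5.75 CPM). The other markers of both lists were thus at or near 0, with Piezo2 and Syt1 as the exceptions, and the part of either in the members' levels was not tested.

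All 8 members had more than 50% of their control UMIs in papilla-like cells, against 7.99% of the genes tested in the control library, and since they were chosen as papilla genes nothing is read from that count. Choosing cells by a gate on marker UMIs over all barcodes gave 3 of 8. The share was 95.2% for Vip, 93.9% for Cnr1, 90.5% for Oprk1 and 89.7% for Tacr1. It was 87.4% for Npvf, 81.4% for Gal, 77.1% for Cck and 75.3% for Penk. In TP the share of Penk was 27.1% (25 to 29.3), since 1085 of its 1667 UMIs lay in dermal fibroblast-like cells, which were 219 cells in the control and 674 in TP. Tacr1, the receptor of substance P, had a second site in endothelial-like cells, at 175 CPM in the control and 259 CPM in TP. Gal was found in dermal fibroblast-like cells at 10.4 CPM (6 UMIs) in the control and 21.8 CPM (109 UMIs) in TP. Vip, Npvf and Oprk1 stayed under 1 CPM in every other named class or unnamed cluster in both libraries.

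**Figure D1:**
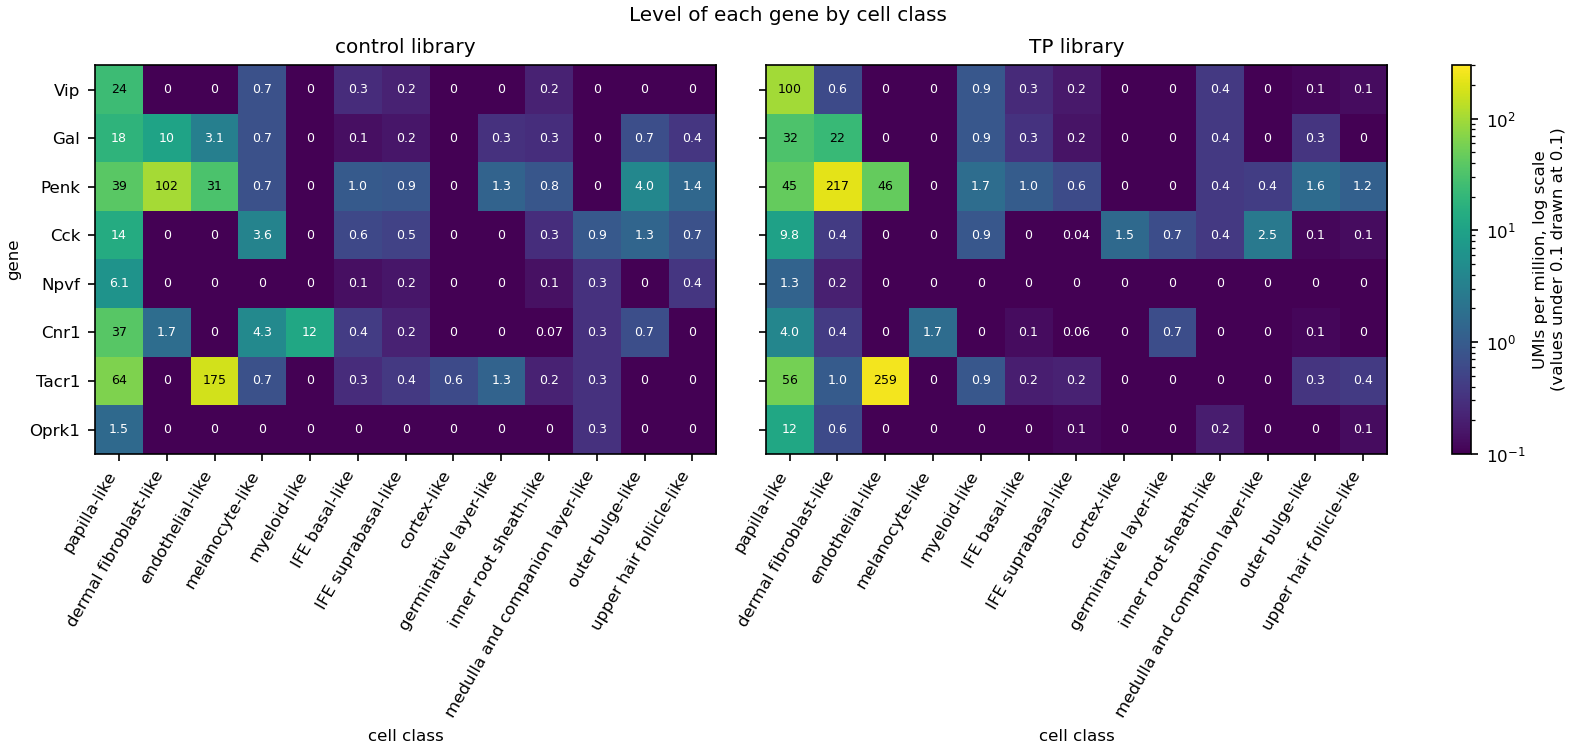
Level of each gene (rows, CPM, colour on a log scale) in the 13 named cell classes (columns) of the control (left) and TP library (right). Papilla-like cells hold every gene at 1.29 CPM or more in both libraries, with Penk higher in dermal fibroblast-like cells and Tacr1 higher in endothelial-like cells.

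Inner root sheath-like keratinocytes, the epithelial layer that moulds the hair shaft, should lack these genes and give the level of free RNA. There no member passed 0.848 CPM. After thinning every cell to 1000 UMIs, 0.167% of these control cells or fewer held a UMI of any given member, and 0.122% or fewer in TP. In papilla-like cells thinned in the same way, Tacr1 was found in 5.12% of control cells and 5.02% of TP cells. Cnr1 was found in 3.15% of control cells (2.62 to 3.74) and 0.598% of TP cells (0.287 to 1.10). Vip was found in 0.888% and 2.51%, and Oprk1 in 0.0761% and 1.43%. Shares without thinning were 7.63% and 1.79% for Cnr1, 11% and 13.3% for Tacr1, 1.46% and 4.09% for Vip and 0.417% and 4.43% for Oprk1. Papilla-like cells had a median of 2407 UMIs in the control and 4448 in TP, and inner root sheath-like cells 1974 and 3848. The thinned share of Oprk1 in the control rested on 3 cells.

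Papilla-like cells divided into 7 states. State 1 was led by Luzp2, Galnt13, Cdh19, Gm50048 and Mgat4c and had the highest Fgf10 (2420 CPM), Rspo3 and Sox2. State 2 was led by Cdh22, Syt6, Adgrv1, Pnpla3 and Spry1 and had the highest Corin (3352 CPM) and Bmp6 (1064 CPM). State 3 was led by Vip itself, Msantd1, Sox18, Galnt9 and a, the agouti gene. State 4 was led by Sox5, Prkch, Bnc2, Sox6 and Lypd6b, with 2822 CPM of inner root sheath markers. State 5 was led by Krt71, AY036118, Dapl1, Krt25 and Tchh, root sheath transcripts for the most part, with 5544 CPM of those markers and a median of 741 UMIs per cell in the control and 659 in TP. State 6 was led by Igfbp2, Lrrc15, Mfap5, Fgl2 and Stmn2, with 2730 CPM of dermal sheath markers and 10572 CPM of dermal fibroblast markers, each above every other state. State 7 was led by Igfbp3, Tnn, Aspn, Dkk2 and Slc12a1, with 1448 CPM of papilla markers against 3403 to 14147 CPM in the others. Under the 4 other clusterings, 0.898% to 2.10% of the cells of state 7 were papilla-like, and 43.1% to 97.8% of those of state 6. States 1, 2 and 3 thus carry the papilla label best, and the values of the other states are given with these markers in view.

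The states took different shares of the papilla-like cells in the 2 libraries. State 2 was 33.7% of them in the control and 10.6% in TP. State 3 was 6.79% and 30.9%, and state 7 was 0.765% (33 cells) and 16.9% (301 cells). State 1 was closer, at 30.3% and 25.8%. A level over all papilla-like cells therefore mixes the level within a state with the number of cells in it, and both are given for each gene below.

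**Figure D2:**
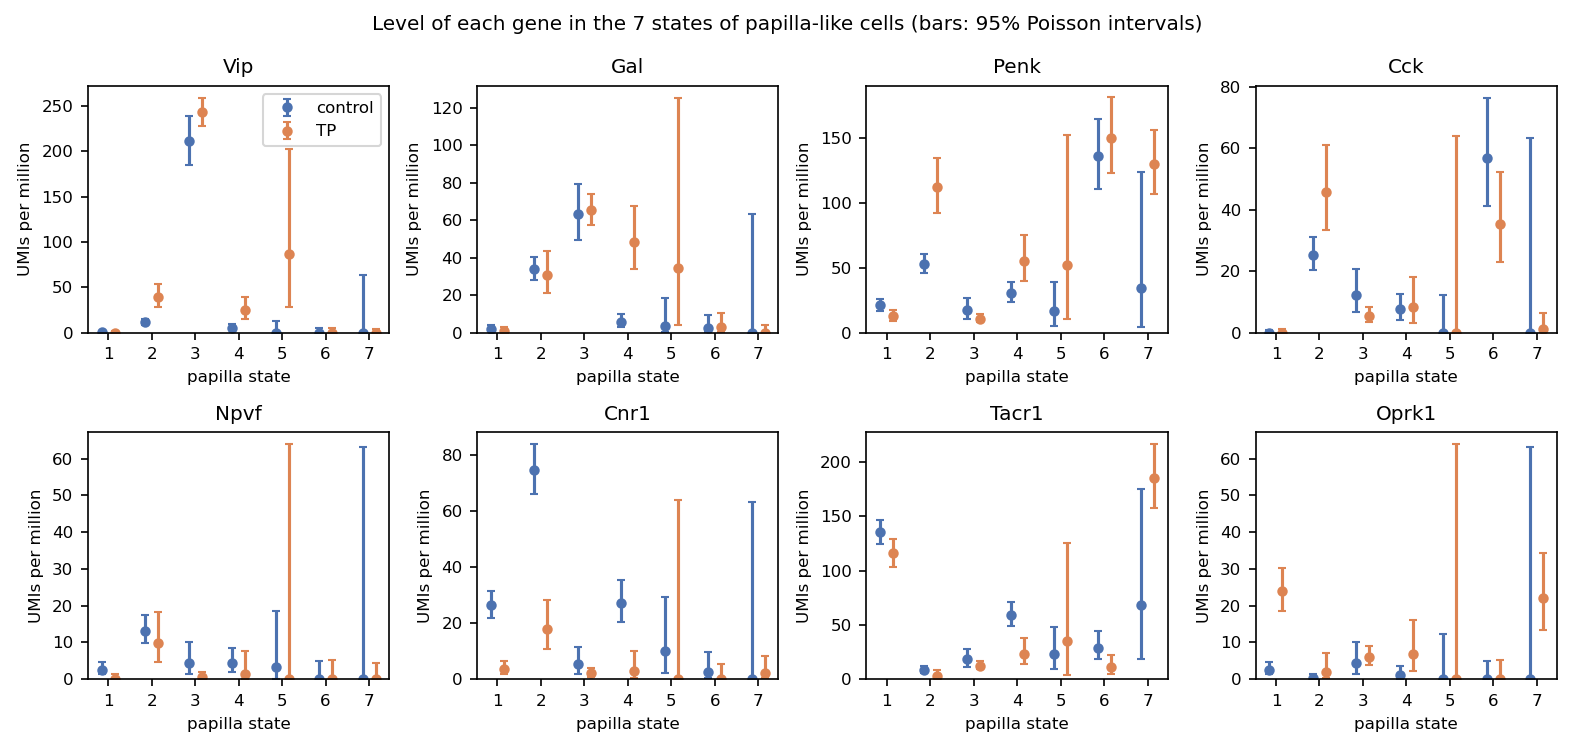
Level of each gene (CPM, linear axis from 0) in the 7 papilla states of the control (blue) and TP library (orange), with exact 95% Poisson intervals. Vip stands above 200 CPM in state 3 of both libraries, Cnr1 is lower in TP in states 1, 2 and 4, and the wide bars of states 5 and 7 come from few UMIs.

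Vip encodes vasoactive intestinal peptide, which relaxes smooth muscle and widens vessels. It had 297 UMIs in the papilla-like cells of the control (24.0 CPM) and 1005 in those of TP (99.7 CPM), a ratio of 4.16 (3.65 to 4.75). State 3 held 81.1% of these UMIs in the control and 93.7% in TP. Within state 3 the level was 211 CPM in the control and 243 CPM in TP, a ratio of 1.15 (0.999 to 1.33). At this resolution the 4.16-fold difference over all papilla-like cells thus went with a larger state 3, within which the interval of the ratio held 1. That reading did not hold at the finer resolution given below. State 2 had 11.3 CPM (43 UMIs) and 39.7 CPM (40 UMIs), a ratio of 3.50 (2.22 to 5.51), but the TP UMIs lay in 7 cells, of which 1 held 20. In state 4 there were 11 and 18 UMIs, with 17 of the 18 in 1 TP cell. State 5 had 0 control UMIs and 5 TP UMIs, in 2 cells (86.7 CPM). Weighting the states by their control shares gave a ratio of 2.14, which rests in part on these few cells of states 2, 4 and 5.

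State 3 itself was not uniform. At a finer resolution of 0.6, 1 set of cells had Vip, a, Gal and Ptprt among its leading genes (290 in the control, 235 in TP). Of that set 89.5% lay in state 3. Another set was led by Msantd1, Adamts20, Cd24a, Lhfpl3 and Trim47 (12 and 277). The borders of these sets are not those of state 3, so their ratios cover partly other cells. The former were 6.72% of papilla-like cells in the control and 13.2% in TP, and the latter 0.278% and 15.5%. The latter held 0 UMIs of Vip among 1845723 UMIs in TP, which allows at most 1.63 CPM. In the former Vip was at 196 CPM in the control and 480 CPM in TP, a ratio of 2.45 (2.12 to 2.84). In TP the finer Vip state was thus a larger share of the cells and had a higher Vip level. At a coarser resolution of 0.15 the state led by Vip, Ptprt and Gal was instead 38.6% of papilla-like cells in the control and 23.5% in TP. Of its cells 78.7% lay in state 2. The share of the Vip state and the ratio within it thus depended on where its border was drawn. Vip was also concentrated in few cells: 63 control cells and 73 TP cells held all its papilla-like UMIs, with up to 22 UMIs in a control cell and 59 in a TP cell. Of them, 23 and 39 cells held 5 UMIs or more.

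Gal encodes galanin, a peptide of sensory and hypothalamic neurons. Its papilla-like level was 18.0 CPM in the control (223 UMIs) and 32.3 CPM in TP (326 UMIs), a ratio of 1.80 (1.51 to 2.14). State 3 had the highest level in both libraries, 63.0 CPM and 65.2 CPM, followed by state 2 in the control (33.8 CPM). In state 2 TP had 30.8 CPM, a ratio of 0.912 (0.595 to 1.36). The levels within states 2 and 3 thus lay within counting error of each other, while the state that held most Gal UMIs went from state 2 (57.4% in the control) to state 3 (77.6% in TP). State 4 stood apart, with 5.52 CPM in the control and 48.5 CPM in TP, but the 35 TP UMIs lay in 6 cells, of which 1 held 18. In the finer Vip state Gal was at 59.3 CPM and 123 CPM, a ratio of 2.08 (1.59 to 2.74).

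Cells with Vip had more Gal, over all papilla-like cells and within state 3. In the control, papilla-like cells with a Vip UMI had 115 CPM of Gal and those without had 15.1 CPM, a ratio of 7.63 (5.30 to 10.8). In TP the levels were 217 CPM and 16.7 CPM, a ratio of 13.0 (10.4 to 16.3). Within state 3 the ratios were 3.84 (2.33 to 6.27) in the control and 6.66 (5.14 to 8.66) in TP. In TP the finer cells led by Msantd1 had 0 Vip UMIs and Gal at 4.88 CPM (9 UMIs), so state 3 was mixed in both genes. No ratio within the finer Vip state is given, and the part of this mix in the 6.66 was not tested. Of the 37 control and 62 TP cells of state 3 with a Vip UMI, 15 and 38 also held Gal. The same was not seen in state 2. In the control the ratio there was 2.06 (0.810 to 4.37). In TP its 7 cells with Vip held 0 of the 31 Gal UMIs, a ratio of at most 2.45, and its 22 cells with Gal held 0 of the 40 Vip UMIs, a ratio of at most 0.355. Vip was low where Tacr1 was found: 4.14 CPM against 27.7 CPM in the control and 12.4 CPM against 119 CPM in TP. Tacr1 lay mostly in state 1 (74.2% of its UMIs in the control and 58.1% in TP), which held 2 and 0 Vip UMIs. The contrast of Tacr1 with Vip thus lay at least in part between states. In TP the finer cells led by Msantd1 held 39 Tacr1 UMIs and 0 Vip UMIs. Whether Tacr1 and Vip differ within a state was not tested. These pairs were picked after their values were seen, and cells that held a given transcript were deeper (a median of 3893 against 2392 UMIs for Vip in the control), which a level in CPM allows for.

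**Figure D3:**
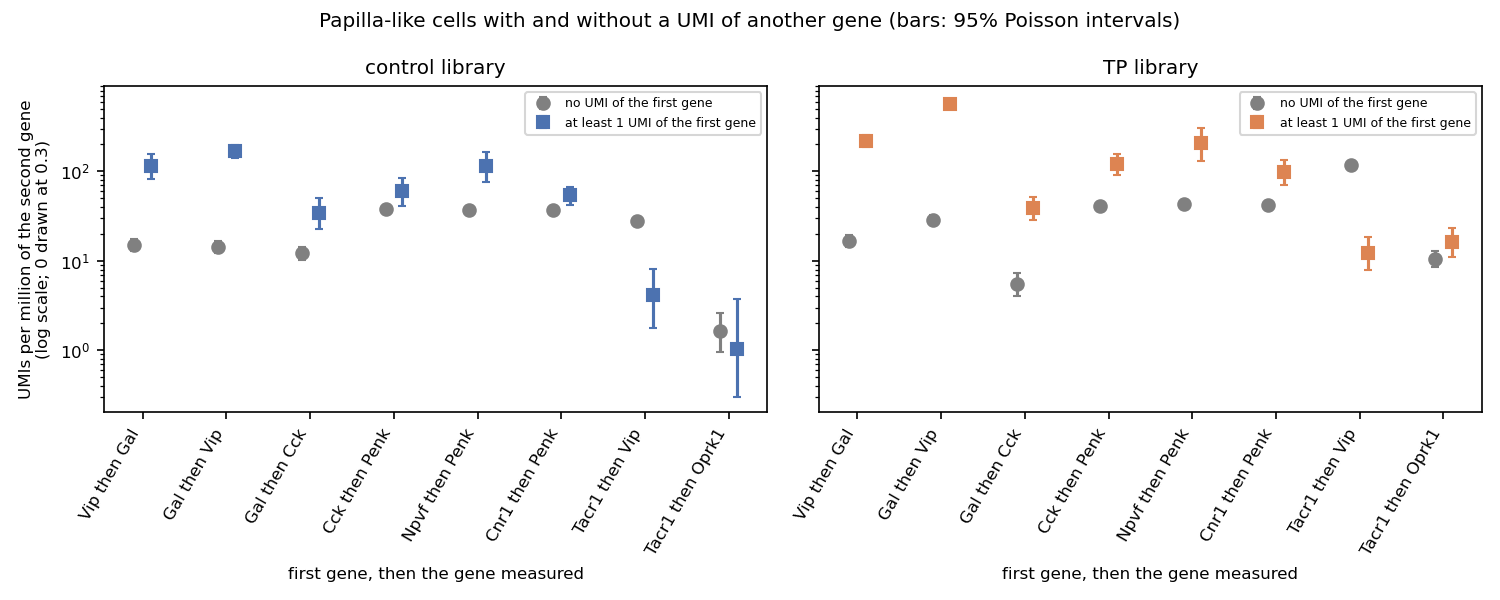
Level of a second gene (CPM, log axis, 0 drawn at 0.3) in papilla-like cells with no UMI (grey circles) and with at least 1 UMI (coloured squares) of a first gene, in the control (left) and TP library (right), with exact 95% Poisson intervals. Gal was 7.63-fold and 13.0-fold higher in cells with Vip, while Vip was lower in cells with Tacr1.

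Penk encodes proenkephalin, the precursor of the opioid enkephalins. Over all kept cells it was at 6.03 CPM in the control (640 UMIs) and 12.6 CPM in TP (1667 UMIs), a ratio of 2.09 (1.91 to 2.29). Over papilla-like cells it was 38.9 CPM (482 UMIs) and 44.8 CPM (452 UMIs), a ratio of 1.15 (1.01 to 1.31) that became 0.947 without state 7 and 0.736 in states 1 to 3 alone. The difference over the whole skin thus lay outside the papilla, in dermal fibroblast-like cells at 102 CPM (59 UMIs) and 217 CPM (1085 UMIs). Reweighting clusters to the control's share of UMIs left a ratio of 1.04 for the whole skin. Within the papilla the states differed. In state 2 Penk was at 52.8 CPM in the control and 112 CPM in TP, a ratio of 2.13 (1.67 to 2.69), and in state 1 at 21.0 CPM and 12.6 CPM, a ratio of 0.603 (0.398 to 0.896). State 6, with sheath and fibroblast markers, had 136 CPM and 150 CPM, and state 7 had 34.3 CPM from 2 control UMIs and 130 CPM in TP.

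Cck encodes cholecystokinin, a hormone of gut and brain. It was at 13.6 CPM in control papilla-like cells (168 UMIs) and 9.82 CPM in TP (99 UMIs), a ratio of 0.724 (0.559 to 0.933). State 6 had the highest level in the control, 56.7 CPM against 25.3 CPM in state 2, and state 2 the highest in TP, 45.7 CPM against 35.3 CPM in state 6. The 25 TP UMIs of state 6 lay in 6 cells, of which 1 held 16. In state 2 alone the ratio was 1.80 (1.24 to 2.59), and in state 3 it was 0.442 (0.214 to 0.940), from 14 and 21 UMIs. Of those 21 TP UMIs, 11 lay in 1 cell. The lower class level in TP thus stood beside a higher level in state 2, which was a smaller share of the cells, and weighting the states by the control's shares gave 1.37. State 1 held 0 Cck UMIs in 4335583 control UMIs and 2846189 TP UMIs, which allows 0.692 CPM and 1.05 CPM. Over all kept cells the ratio was 0.468 (0.373 to 0.585).

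Npvf encodes the precursor of RFamide-related peptides, known from the hypothalamus. It had 76 UMIs in control papilla-like cells (6.14 CPM) and 13 in TP (1.29 CPM), a ratio of 0.210 (0.107 to 0.381). Most of them lay in state 2, with 50 UMIs (13.2 CPM) and 10 UMIs (9.93 CPM), a ratio of 0.753 (0.340 to 1.5). State 1 had 11 control UMIs and 0 in TP, a ratio of at most 0.607. State 3 had 5 and 2 UMIs, a ratio of 0.118 (0.0112 to 0.720), and state 4 had 9 and 1, a ratio of 0.307 (0.00701 to 2.22). The 4.76-fold lower class level thus stood beside a smaller state 2 and lower levels in states 1 and 3, on few UMIs, and the control's state shares gave a ratio of 0.557. In the control, cells with an Npvf UMI had 114 CPM of Penk and those without had 37.4 CPM, a ratio of 3.04 (2.00 to 4.45). Penk, like Npvf, was higher in control state 2 (52.8 CPM) than in states 1 and 3 (21.0 CPM and 17.5 CPM). No ratio within a state is given for this pair, and the part of the states in it was not tested.

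Cnr1, the gene of the cannabinoid receptor CB1, had the lowest ratio of the 8. Its papilla-like level was 37.3 CPM in the control (462 UMIs in 329 cells) and 3.97 CPM in TP (40 UMIs in 32 cells), a ratio of 0.106 (0.075 to 0.147). State 2 had the highest level, 74.7 CPM (283 UMIs) and 17.9 CPM (18 UMIs), a ratio of 0.239 (0.140 to 0.385). State 1 went from 26.3 CPM to 3.51 CPM, a ratio of 0.134 (0.0624 to 0.255). State 4 went from 27.1 CPM to 2.77 CPM, a ratio of 0.102 (0.0121 to 0.388). The interval of state 3 (0.12 to 1.37, from 6 and 8 UMIs) held 1, and the remaining states had 3 UMIs or fewer in each library. Cnr1 was thus lower within states 1, 2 and 4 as well as over the class, and its ratio at the control's state shares was 0.20. At the finer resolution the states with at least 33 control UMIs of Cnr1 had ratios of 0.306 or less. Over all kept cells the ratio was 0.0865 (0.0639 to 0.115). Over cells thinned to 1000 UMIs it was 0.208, on 10 TP cells with a UMI.

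Tacr1 encodes the receptor of substance P, the tachykinin released by sensory nerves. Its papilla-like level was 63.9 CPM (791 UMIs) in the control and 56.3 CPM (568 UMIs) in TP, a ratio of 0.882 (0.790 to 0.983). State 1 held 74.2% of its control UMIs, at 135 CPM in the control and 116 CPM in TP. At the finer resolution of 0.6 the ratios went in opposite directions. Cells led by Ramp3 had 111 CPM and 199 CPM, a ratio of 1.79 (1.46 to 2.19), and cells led by Ppm1h a ratio of 1.35 (0.961 to 1.85). Cells led by Galnt13, of which 99.3% lay in state 1, had 144 CPM and 68.3 CPM, a ratio of 0.474 (0.357 to 0.632). State 7 had the highest level in TP, 186 CPM (160 UMIs in 58 cells), and without that state the class ratio was 0.693. States 4 and 6 were lower in TP, with ratios of 0.398 (0.224 to 0.665) and 0.390 (0.15 to 0.909). In states 2 and 3 it stayed at 18.4 CPM or less in both libraries. Endothelial-like cells went the other way, with a ratio of 1.48 (1.09 to 2.03) from 56 and 199 UMIs.

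Oprk1 encodes the kappa opioid receptor, whose ligands are the dynorphins. It was low in control papilla-like cells (19 UMIs, 1.53 CPM) and at 11.6 CPM in TP (117 UMIs in 79 cells), a ratio of 7.56 (4.63 to 13.0). State 1 had 2.54 CPM (11 UMIs) and 23.9 CPM (68 UMIs), a ratio of 9.42 (4.95 to 19.7). State 3 had 4.37 CPM and 5.93 CPM, a ratio of 1.36 (0.504 to 4.56), and state 7 had 19 UMIs in TP (22.0 CPM) and 0 of 58312 in the control, which allows 51.4 CPM. State 1 thus held 68 of the 117 TP UMIs, and at the control's state shares the ratio was 7.30. Of the finer cells led by Galnt13, 99.3% lay in state 1. They were 3.71% of papilla-like cells in the control and 16.1% in TP. They held 5 control UMIs and 51 TP UMIs of Oprk1, a ratio of 3.35 (1.35 to 10.8). Finer cells led by Ramp3 and by Ppm1h had ratios of 16.5 and 21.0, from 2 and 1 control UMIs. The part of the larger Galnt13 share in the 9.42 and the 7.30 was not tested. In cells thinned to 1000 UMIs the class ratio was 19.6, on 3 control cells with a UMI. Cells with a Tacr1 UMI in TP had 16.2 CPM of Oprk1 and those without had 10.6 CPM, a ratio of 1.53 (0.974 to 2.34). That interval holds 1, so a difference in either direction was not detectable at this depth.

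**Figure D4:**
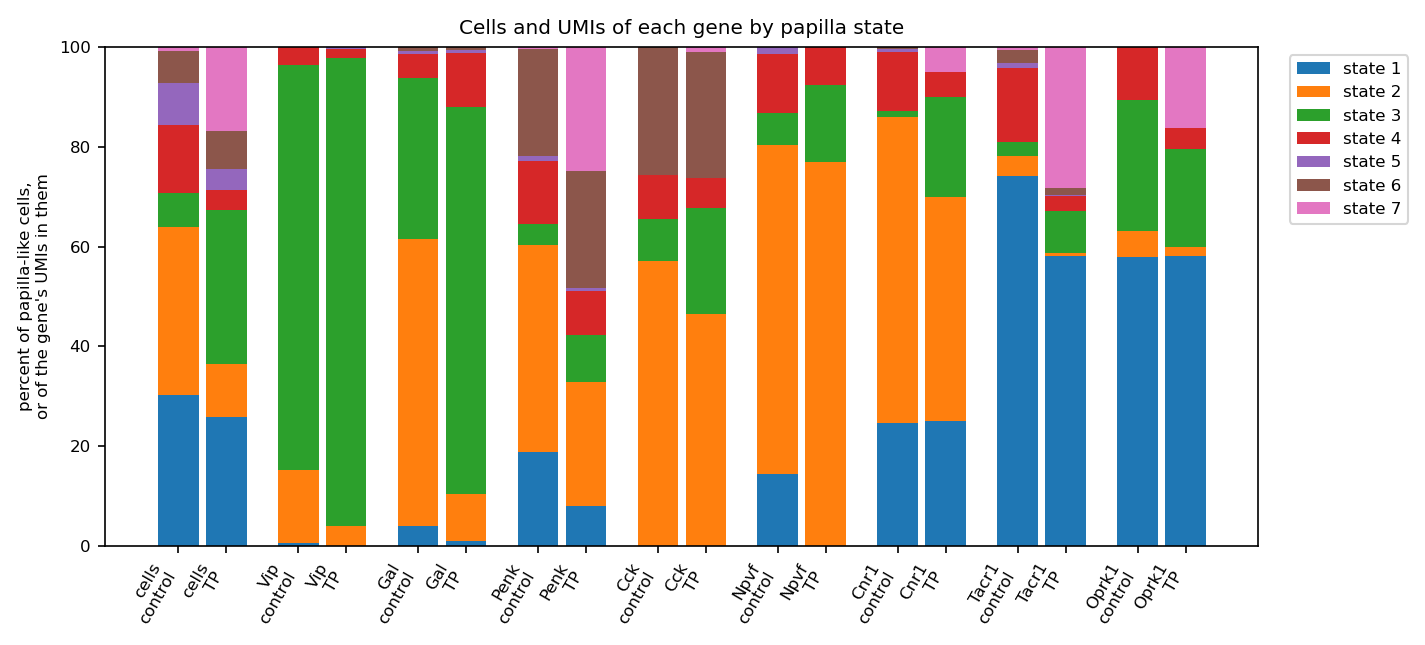
Percent of papilla-like cells (first pair of bars) and of each gene's UMIs in papilla-like cells (other bars) that lay in each of the 7 states, for the control and TP library. State 3 (green) goes from 6.79% to 30.9% of cells and holds 81.1% and 93.7% of Vip UMIs, while state 7 (pink) is nearly absent from the control.

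Over all papilla states, Cnr1 and Npvf were at least 2-fold lower in TP papilla-like cells (log2 ratio of -1 or less, with 1 UMI added to each library), and Vip and Oprk1 at least 2-fold higher. That is 2 of 8 in each direction, beside 7.12% of 13055 genes lower and 3.91% higher in the same cells. The log2 values were -3.20 for Cnr1, -2.16 for Npvf, 2.05 for Vip and 2.86 for Oprk1. The members' median was 0.01, and that of all genes tested was -0.10. Over all kept cells Cck, Npvf and Cnr1 were at least 2-fold lower, beside 10.3% of 17572 genes, and Vip, Penk and Oprk1 at least 2-fold higher, beside 8.33%. The median over all genes there was -0.23. A median below 0 marks the shift against which each member's value is to be read. The members were chosen in part on this contrast, so the counts are not a result about them.

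**Figure D5:**
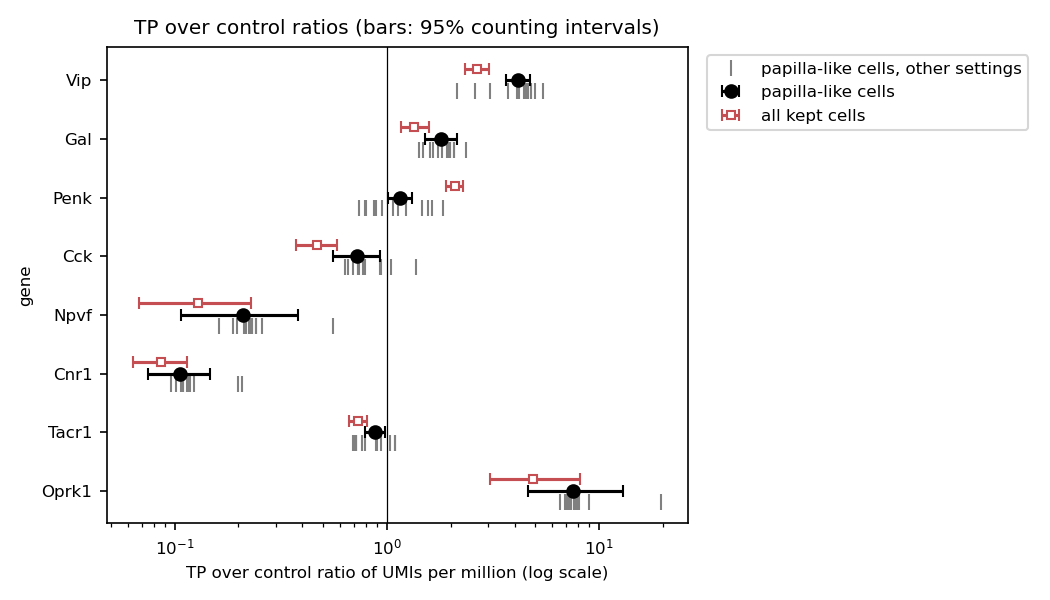
TP over control ratio of each gene (log axis) in papilla-like cells (black, with 95% counting intervals), under the other settings (grey ticks) and over all kept cells (red squares). Cnr1 and Npvf lie below 1 and Vip and Oprk1 above it under every setting drawn, while Penk, Cck and Tacr1 have settings on both sides of 1.

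The receptors for these peptides were in part in the same cells. Of 18 other receptor genes of the pathway list, 4 had at least 50 UMIs in the papilla-like cells of both libraries together, and none of the 4 was 2-fold changed in either direction over the class. Npffr2, a receptor of RFamide peptides, had 1439 UMIs there in the control (116 CPM) and 719 in TP (71.3 CPM), a ratio of 0.614 (0.560 to 0.672). It was highest in state 2, at 148 CPM and 191 CPM, the state with most Npvf, and its ratio in state 3 was 0.412 (0.327 to 0.519). Npffr1, the other listed receptor of RFamide peptides, had 0 UMIs in the control and 1 in TP. Which of these receptors the product of Npvf acts on in this tissue was not tested. Vipr2, a receptor of VIP, had 35.5 CPM and 44.1 CPM, a ratio of 1.24 (1.09 to 1.42). In state 3, where Vip was highest, it was at 56.9 CPM and 47.4 CPM, beside 59.6 CPM in state 2 of either library. Its highest level was in state 7, at 137 CPM (8 UMIs) and 102 CPM (88 UMIs), where no Vip UMI was found. Galr2, a galanin receptor, had 47 and 32 UMIs (3.8 and 3.17 CPM), with a ratio of 0.189 (0.0723 to 0.470) in state 3 and 6.02 (1.74 to 23.4) in state 2, from 5 to 14 UMIs each. Vipr1, another VIP receptor, had 34 and 36. By contrast Cckar and Cckbr, the receptors of cholecystokinin, had 1 UMI each or fewer, and Oprm1 and Oprd1, the mu and delta opioid receptors that enkephalins bind, had 1 and 8 in the control and 0 in TP. Among the named classes Oprd1 was highest in germinative layer-like cells, at 6.32 CPM (20 UMIs) and 4.63 CPM (7 UMIs). Most of its UMIs, 161 and 39 over all kept cells, lay elsewhere. Cnr2, the other cannabinoid receptor, had 0 papilla-like UMIs in both libraries.

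Of the 32 other neuropeptide precursors, 2 had at least 50 UMIs in papilla-like cells by the same count, and both were at least 2-fold lower in TP, beside 7.12% of all genes tested in these cells. Sst, somatostatin, went from 62 UMIs (5.01 CPM) to 7 (0.694 CPM), a ratio of 0.139 (0.0535 to 0.303). Its control UMIs were in states 2 (31) and 3 (26), and within state 3 the ratio was 0.0340 (0.00659 to 0.111). Cartpt, the precursor of the CART peptides, went from 56 UMIs (4.52 CPM) to 1, a ratio of 0.0219 (0.000546 to 0.127). Of its control UMIs 39 were in state 4 and 16 in state 2. Pdyn, the gene of the dynorphins, had 3 UMIs in the control and 0 in TP. Tac1, the gene of substance P, had 0 in the control and 33 in TP (3.27 CPM), and was highest in state 7 (28.2 CPM over both libraries).

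The enzymes of the endocannabinoids, the lipids that bind CB1, were all found in papilla-like cells, but each had its highest level in another named class. For Napepld the gap was small. It was at 10.3 CPM (17 UMIs) and 4.65 CPM (3 UMIs) in cortex-like cells, beside 9.61 CPM and 4.56 CPM in papilla-like cells. Mgll was at 1586 CPM in the control and 1853 CPM in TP in melanocyte-like cells. In suprabasal epidermis-like cells Faah was at 75.7 CPM and 86.5 CPM, and Abhd6 at 68.3 CPM and 76.9 CPM. Of the 8 listed, Napepld, which makes anandamide, was at least 2-fold lower in TP, at 9.61 CPM and 4.56 CPM, a ratio of 0.475 (0.330 to 0.672), beside the same 7.12%. Its ratio was 1.12 (0.570 to 2.07) in state 2 and 0.683 (0.326 to 1.36) in state 1. In state 3 it was 0.368 (0.161 to 0.862), and in state 4 it was 0.120 (0.00292 to 0.740), from 23 and 1 UMIs. Abhd6, which degrades 2-arachidonoylglycerol, had a ratio of 0.502 (0.372 to 0.671), just inside the 2-fold limit. Mgll, the main enzyme of that breakdown, had 58.8 CPM and 37.0 CPM, and Dagla, which makes 2-arachidonoylglycerol, 7.51 CPM and 5.36 CPM. Faah, which degrades anandamide, had 6.06 CPM and 7.64 CPM, a ratio of 1.26 (0.905 to 1.76). The median log2 ratio of the 8 was -0.50, beside -0.10 for all genes tested. Of 15 genes for peptide processing and breakdown, 9 were tested and none was 2-fold changed over the class. Pcsk2, a convertase, had a class ratio of 1.65 (1.27 to 2.15), with 5.01 (3.46 to 7.41) in state 1 and 0.288 (0.0895 to 0.720) in state 4. Class ratios were, for Pam, which amidates peptide ends, 1.53 (1.39 to 1.68) and, for Cpe, the carboxypeptidase that trims them, 0.623 (0.545 to 0.712).

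The genes whose levels followed each member most closely were sought over 38 profiles, the 12 other named classes and the 7 papilla states in each library, among 10241 genes. Classes and states of 1 library share its depth and free RNA, so the Pearson r of log2(CPM + 1) is a description. Gal (r = 0.86) and Apela (0.82) were among the 3 genes closest to Vip, and Gal was most like Angpt4 (0.91), Syt13 (0.87) and Vip. Npvf and Cnr1 shared Gm20619 (0.91 and 0.84) and Dcdc2a (0.88 and 0.87) among their closest 3, with Bves (0.90) for Npvf and Amph (0.90) for Cnr1. Penk was closest to Fxyd1 (0.92), Serping1 (0.92) and Mxra8 (0.92). Its own highest profile was state 6 in the control (136 CPM) and dermal fibroblast-like cells in TP (217 CPM). Tacr1 was closest to Gimap6 (0.86), Pde8b (0.85) and Piezo2 (0.85), Oprk1 to C130073E24Rik (0.85), Hcrtr2 (0.81) and Rtl4 (0.81), and Cck to Syt6 (0.81), Sox11 (0.79) and Actg2 (0.76).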

How the data were processed

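Dorsal skin of control and TP mice was profiled with a droplet 3′ kit, 1 library of 15 pooled mice per group. The deposited files hold counts of UMIs per gene and barcode, which the authors made with Cell Ranger 8.0.1 on mm10. The 8 members and the gene lists were chosen with earlier results of these data known. The genes named are those 8, the listed pathway genes with at least 50 UMIs in papilla-like cells, 5 leading genes per state and 3 genes of most similar pattern per member. Genes of the pathway list with fewer UMIs that are named were chosen after their values were seen.

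Limits of 200 and 8000 detected genes and a mitochondrial share of 10% left 42244 barcodes in the control and 20045 in TP. Doublets were called by a rewritten nearest-neighbour procedure at a fixed 7.5% of each library and removed (3168 and 1503). The share of barcodes over the mitochondrial limit was 7.58% and 22.6%, and 303 barcodes occurred in both libraries and were kept. Cells were integrated and clustered in Seurat 5.3.0 (R 4.3.3) on 2000 variable genes without the members and pathway genes, with 30 components and resolution 1. Clusters were named by a marker score of at least 1.2 with 3 or more markers detected, a limit set after the clusters were seen, and 9 clusters stayed unnamed. Papilla-like cells were clustered again with 20 components at resolution 0.3.

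UMIs were summed per library and class and divided by all UMIs of the same cells. Intervals are exact 95% intervals (Poisson for a level, Clopper-Pearson for a share, conditional binomial for a ratio) and cover counting error only. A count of 0 was read as at most 3 UMIs. With 1 library per condition there was no test and no p-value. A gene was counted as at least 2-fold changed at a log2 ratio past 1 with 1 UMI added to each library. Only genes whose UMIs summed over the libraries to 50 or more were counted. The sums and intervals were tested on simulated data. Alternatives were doublets kept, no integration, other resolutions, a marker gate, thinning to 1000 UMIs, TMM factors (edgeR 4.0.16), fixed state or cluster shares, a mean log measure and other count limits. Leaving out states was added after the data were seen. Promoter sequences are RefSeq's for GRCm38.p6. A gene that the naming rule selects is not reported here.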

Additional observations from a re-analysis of the deposited data

Results flagged for a closer look

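The TP over control ratio of Penk went in opposite directions in different papilla states, at 3.79 in state 7, where the control had 2 UMIs, and 0.603 in state 1. Cck did the same, at 1.80 in state 2 and 0.442 in state 3, where 1 TP cell held 11 of the 21 UMIs. For Tacr1 the ratio was 2.70 in state 7, from 4 control UMIs, and 0.390 in state 6. With 1 library per condition these differences between states were not tested.

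Barcodes outside the limits on genes and mitochondrial counts, which entered only the alternatives over all barcodes, also held UMIs of the members. Gal was at 5.87 CPM in those of TP (62 UMIs) and 0.402 CPM in those of the control (2 UMIs). Tacr1 was at 6.06 CPM in TP (64 UMIs) and 1.21 CPM in the control (6 UMIs). Vip went the other way there, at 5.02 CPM in the control (25 UMIs) and 3.03 CPM in TP (32 UMIs).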

How the results depend on the processing

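No paired analysis was possible because each condition was 1 library. None of the members' ratios over papilla-like or all kept cells that were called 2-fold changed crossed to the other direction under any alternative run, and the causes of the moves below were not tested. Of the alternative values of the members' papilla-like ratios, 67 moved by less than their counting interval and 37 by more. With states weighted by the control's shares, 1 member in place of 2 was at least 2-fold lower (Cnr1 at 0.20, with Npvf at 0.557). The marker gate left 3 members with more than 50% of their control UMIs in papilla-like cells. The ratio of papilla-like shares, 0.872, became 0.637 with doublets kept, 0.710 without integration, 0.687 at resolution 0.5, 0.688 at resolution 2, 0.668 with the marker gate and 0.810 in cells of at least 1000 UMIs. After the data were seen it was also computed without states 4 and 5 (1.03) and without state 7 (0.731). The share of all genes at least 2-fold lower, 7.12%, was 13.0% with no count limit and 4.56% at 200 UMIs or more. At state resolution 0.15, 4 of 8 members had their highest level in the same state, and 6 at 0.6, where Tacr1 and Oprk1 peaked among cells of state 1 in place of state 7. This rank pools both libraries, and state 7 was nearly all TP cells (301 of 334). Within the control Tacr1 was highest in state 1 (135 CPM), as was Oprk1 within TP (23.9 CPM against 22.0 CPM in state 7). The ratio of Vip was 2.14 with the control's state shares, and that of Oprk1 was 19.6 in cells thinned to 1000 UMIs. Depth limits Npvf and Cnr1 in TP (13 and 40 papilla-like UMIs) and Oprk1 in the control (19).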
